A study of Mus musculus with 10 samples.

Results

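The genes described here are named as subunits of the oxidative phosphorylation machinery, some encoded in the nuclear genome and some in the mitochondrial genome. They were taken by symbol: NADH dehydrogenase subunits (Nduf with a, b, c, s or v and a digit, and Ndufab1), Sdha to Sdhd, symbols that start with Uqcr, Cox4i, Cox5, Cox6, Cox7, Cox8 or Atp5, and mt-Nd, mt-Co, mt-Atp and mt-Cytb. Of 99 matching entries, 5 held under 10 reads over the 10 libraries and were set aside (Cox4i2, Cox8b, mt-Atp8, mt-Nd4l and a second entry of Atp5o). The remaining 94 of the 31053 genes counted were 83 nuclear genes (38 of complex I, 4 of complex II, 8 of complex III, 16 of complex IV and 17 of complex V) and 11 mitochondrially encoded genes (6 of complex I, 1 of complex III, 3 of complex IV and 1 of complex V). Complexes were assigned by the start of the symbol alone. Some genes, such as Ndufa4, Ndufa4l2, Cox7a2l and Atp5s (Dmac2l in RefSeq), may therefore belong to another complex or be no subunit.

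Oxidative phosphorylation makes ATP in the inner mitochondrial membrane. Complexes I and II pass electrons to coenzyme Q, complex III passes them on to cytochrome c and complex IV to oxygen, while complexes I, III and IV pump protons whose return through complex V, the ATP synthase, drives ATP synthesis. Most subunits are made from nuclear genes and imported, and a small hydrophobic core is made inside the organelle from the mitochondrial genome, so the complexes need both gene sets. Naive mouse embryonic stem (ES) cells are known to use both respiration and glycolysis, and cells of the later, primed epiblast state rely more on glycolysis.

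RNA was measured in E14 mouse ES cells, all stably carrying an Esrrb construct that doxycycline (DOX) induces. Esrrb belongs to the oestrogen-related receptors and helps to hold ES cells in the naive state. The 3 groups were cells kept for 96 h in N2B27 medium with DOX after withdrawal of 2iL (96 h DOX, n = 3), cells kept for 96 h in N2B27 without 2iL and without DOX (96 h no DOX, n = 3), and cells in N2B27 with 2iL and no DOX (2iL, n = 4). In 2iL, CHIR99021 at 3 µM blocks GSK3, PD0325901 at 1 µM blocks MEK, and LIF is added. Cells of the 96 h groups had been plated at single-cell density in 2iL the day before. The controls carried the construct too, no group had DOX in 2iL, and no group had DOX without the construct, so DOX itself and the construct cannot be told apart. Libraries are named by experiment and number (exp1_1 is experiment 1, library 1), and no source says that each was its own culture, so the p-values speak of spread among libraries that may be technical.

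Reads were counted from the 3′ ends of polyA RNA, and only reads with 1 place in the genome were used. The libraries held 2769071 to 4715450 reads in genes, except 96 h DOX exp1_2 with 1253620. That library stood apart in other ways as well. The ribosomal RNA-overlapping gene Gm42418 took 14.8% of its reads (3.39% to 6.61% in the other 9), ribosomal protein genes took 7.42% (13.8% to 17.5%), and 8 fibroblast markers summed to 2102 CPM with all 8 detected (1.82 to 23.9 CPM, with 2 to 7 detected). Counts of called oxidative phosphorylation genes in the DOX comparisons are therefore given with and without it, and single values where it moved them. Counts of called cell state markers are given only with it included. Of 9 naive markers, all fell in 96 h no DOX against 2iL, and all 6 formative epiblast markers rose. Reads counted as Esrrb averaged 18.2 ± 7.71 TMM-scaled CPM in 96 h DOX, 23.1 ± 9.24 in 96 h no DOX and 315 ± 62.7 in 2iL (SD). Whether the construct carries the 3′ end that is counted is not given, so this level does not check the induction.

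Levels below are reads per 1000000 reads in genes (CPM) after scaling by the trimmed mean of M values (TMM), and sums over genes are plain CPM or percent of reads. A gene was called where edgeR's quasi-likelihood test over all 11215 tested genes gave a Benjamini-Hochberg adjusted p below 0.05. "Rose" and "fell" are used of called genes alone. In these bulk samples, fewer cells of a type and less RNA per cell cannot be told apart. Of the 83 nuclear genes, 79 passed the filter on low counts (all but Cox6a2, Cox8c, Ndufa4l2 and Ndufs5), and all 11 mitochondrially encoded genes did.

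The upstream sequences of the 4 nuclear genes with the largest fall after 2iL withdrawal are shown here, because these genes lead the results and their promoters differ in the motifs they hold. They are from RefSeq (GRCm38.p6) and run 5′ to 3′ on the gene's strand, starting 250 bases before the RefSeq start and ending before the gene's start in either annotation. Capitals mark matches to the motif of the respiratory factor NRF1, searched as GCGCANGCG. The stretches are chr7:30183921-30184143 (plus strand) for Cox7a1, chr16:37654454-37654618 (minus strand) for Ndufb4, chr5:115348982-115349208 (minus strand) for Cox6a1 and chr11:4704345-4704594 (minus strand) for Uqcr10.
Cox7a1: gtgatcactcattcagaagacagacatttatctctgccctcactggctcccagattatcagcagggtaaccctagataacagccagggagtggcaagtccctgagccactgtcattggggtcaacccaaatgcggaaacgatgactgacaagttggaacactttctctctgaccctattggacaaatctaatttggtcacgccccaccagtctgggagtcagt
Ndufb4: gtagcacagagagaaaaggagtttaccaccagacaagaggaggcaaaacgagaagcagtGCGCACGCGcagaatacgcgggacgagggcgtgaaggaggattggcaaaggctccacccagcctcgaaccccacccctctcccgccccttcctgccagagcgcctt
Cox6a1: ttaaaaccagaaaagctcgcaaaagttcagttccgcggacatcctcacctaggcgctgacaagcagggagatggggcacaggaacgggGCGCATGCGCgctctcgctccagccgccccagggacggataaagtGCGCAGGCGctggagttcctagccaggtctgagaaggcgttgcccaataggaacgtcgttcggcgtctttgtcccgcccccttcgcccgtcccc
Uqcr10: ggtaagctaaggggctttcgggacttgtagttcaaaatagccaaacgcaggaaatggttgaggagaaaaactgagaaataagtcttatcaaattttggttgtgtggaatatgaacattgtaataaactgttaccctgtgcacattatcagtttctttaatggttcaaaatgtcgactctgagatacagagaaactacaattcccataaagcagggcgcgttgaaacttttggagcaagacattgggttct

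The Ndufb4 and Cox6a1 stretches held NRF1 matches, of which a pair in Cox6a1 overlaps on opposite strands, and those of Cox7a1 and Uqcr10 held no match to any of 4 motifs. Nearer to its RefSeq start, Ndufb4 had another 2 NRF1 matches and 1 match to the ERR motif (that of the oestrogen-related receptors, the family of Esrrb), searched as TNAAGGTCA; this match read TGAAGGTCA and began 57 bases before the start. Over the 68 of 83 nuclear genes with a promoter in the RefSeq table (250 bases before to 50 after the start, both strands searched), the NRF1 motif was in 20 (29.4%), against 7.03% of 27025 genes of the table. The YY1 motif AAGATGGCG was in 7 (10.3%, against 1.64%), the ERR motif in 3 (4.41%, against 1.43%) and the GABP motif CCGGAAGTG in 2 (2.94%, against 2.25%). Of the 21 genes with a promoter that fell in 96 h no DOX against 2iL, 7 held the NRF1 motif (33.3%), against 13 of the other 47 (27.7%). The ERR motif was in 1 of the 21 (4.76%) and 2 of the 47 (4.26%). These matches describe letters in a window and not binding.

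As a sum, the 83 nuclear genes took less of the reads at 96 h than in 2iL. They took 1.90% ± 0.390 of reads in genes in 96 h DOX, 1.77% ± 0.0862 in 96 h no DOX and 2.43% ± 0.0882 in 2iL (SD). In CPM, the 96 h DOX libraries held 19796 (exp1_1), 22477 (exp2_1) and 14797 (exp1_2), the 96 h no DOX libraries 16928 to 18645, and the 2iL libraries 23502 to 25539. All 2iL libraries were thus above all 6 libraries at 96 h, and 96 h DOX exp1_2 was the lowest of the 10. Without it, the 96 h DOX mean was 21137 ± 1896 CPM (n = 2), above all 96 h no DOX libraries. The 5 complexes followed the same order of means in 96 h no DOX and 2iL: complex I held 6118 ± 355 against 7721 ± 418 CPM, complex II 376 ± 43.9 against 515 ± 12.5, complex III 1800 ± 80.8 against 2714 ± 137, complex IV 4414 ± 446 against 5961 ± 310, and complex V 5033 ± 504 against 7359 ± 313.

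In the means of 96 h no DOX and 2iL, the sum of the 11 mitochondrially encoded genes went the same way as the nuclear sum. The sets parted most in 96 h DOX exp1_2. The 11 genes took 1.78% ± 1.15 of reads in 96 h DOX, 0.716% ± 0.170 in 96 h no DOX and 1.01% ± 0.146 in 2iL. The mean with DOX rested on 1 library: exp1_2 held 30990 CPM in these genes, against 9779 in exp1_1 and 12709 in exp2_1. Without exp1_2 the 96 h DOX mean was 11244 ± 2072 CPM, and the 96 h no DOX and 2iL ranges (5594 to 8973 and 8241 to 11559 CPM) overlapped each other. The library with the highest mitochondrially encoded sum was therefore the one with the lowest nuclear sum.

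**Figure D1:**
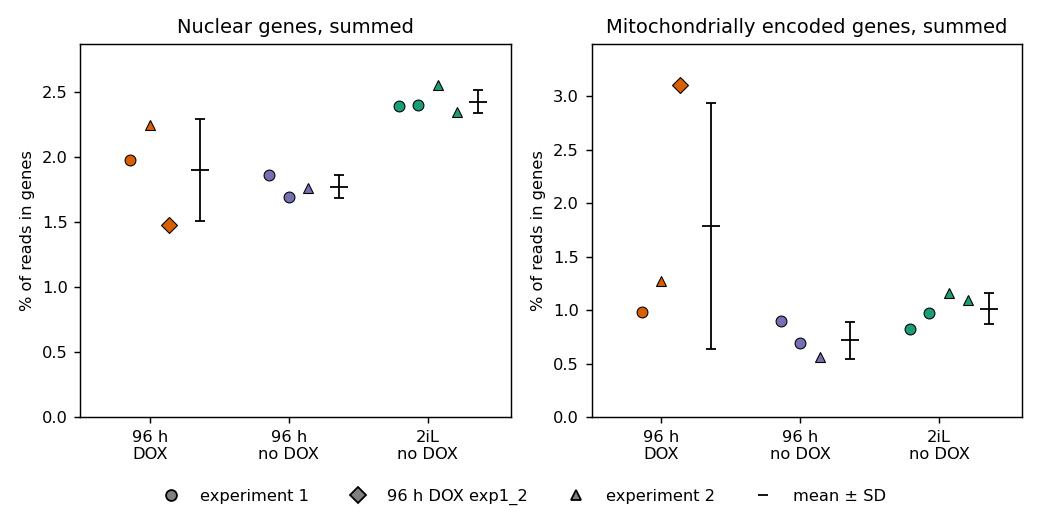
Summed reads of the 83 nuclear genes (left) and the 11 mitochondrially encoded genes (right) as percent of reads in genes, one point per library, with the mean and SD of each group. The nuclear sum is highest in the 4 2iL libraries, and the diamond, 96 h DOX exp1_2, is lowest on the left and highest on the right, where its 30990 CPM is 3.10% of reads.

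Part of the nuclear set was lower after withdrawal of 2iL without DOX. In 96 h no DOX against 2iL, 24 of 79 nuclear genes fell (30.4%) and 0 rose by edgeR, and DESeq2 and limma-voom also called 0 higher. Of all tested genes, edgeR called 8.9% lower, 11.5% higher and 20.4% in either direction. The unadjusted p was below 0.05 for 40 of the 79. The median log2 fold change was -0.49, against 0.00 over all tested genes, and 71 of 79 values were below 0. The fallen genes came from every complex: 9 of 36 tested in complex I, 1 of 4 in complex II, 3 of 8 in complex III, 5 of 14 in complex IV and 6 of 17 in complex V. Of the 24, 10 stayed called whichever library was left out (Atp5g1, Atp5mpl, Cox5a, Cox6a1, Cox7a1, Ndufa3, Ndufb4, Ndufs8, Sdha and Uqcr10). The count was 34 without 96 h DOX exp1_2, which is in the shared fit, with all 24 among them (10.6% of all genes were then called lower, 12.8% higher and 23.4% either way). It was 14 without 2iL exp2_1 and 15 without 96 h no DOX exp1_2 or exp2_2, and the share of all genes is not given for these fits. Within experiment 1 alone (2 libraries per group) it was 3 (3.80%), below the 4.39% of all genes called lower there (6.45% higher and 10.8% either way). The excess over all genes was thus not seen in experiment 1 alone.

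**Figure D2:**
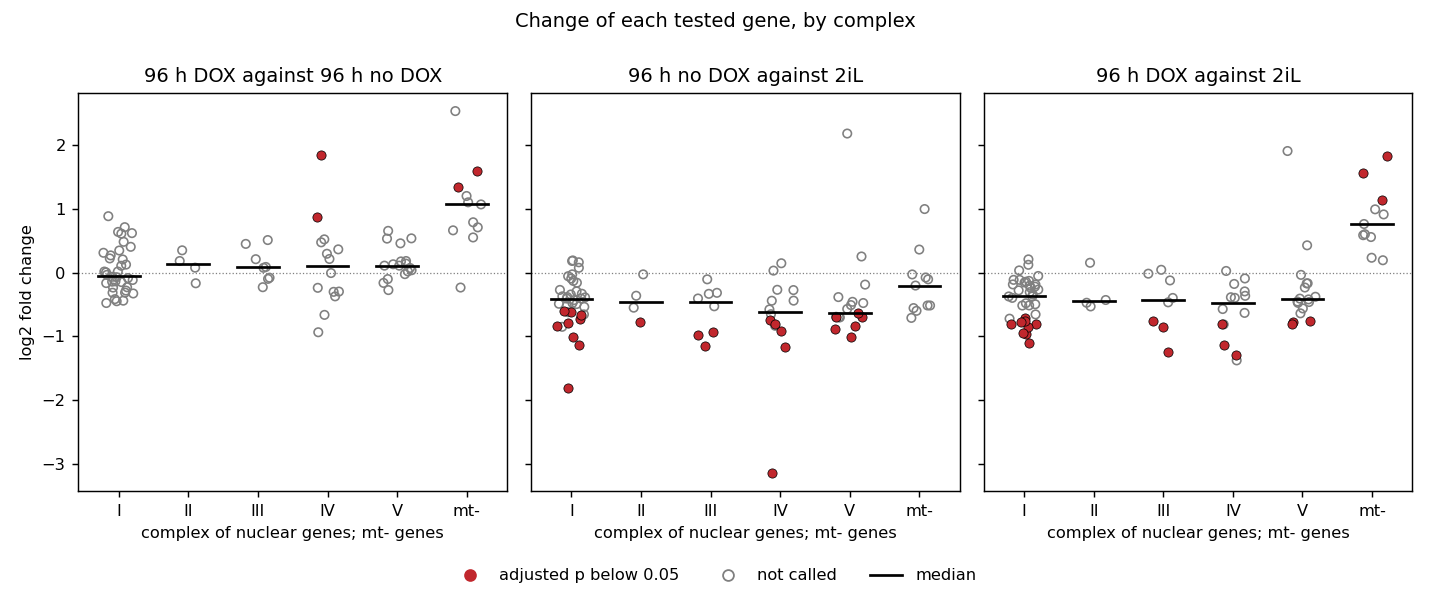
Log2 fold change of each tested gene in the 3 comparisons, with nuclear genes by complex (I to V) and the mitochondrially encoded genes at the right of each panel. Filled points are called genes and lines are medians: filled points lie below 0 in all 5 complexes for 96 h no DOX against 2iL (median of the 79 nuclear genes -0.49), and 2 nuclear points and 2 mitochondrially encoded points are filled, above 0, for 96 h DOX against 96 h no DOX.

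In complex I, which oxidises NADH and is the largest complex, the largest fall was that of Ndufb4 (ENSMUSG00000022820, chromosome 16, 37647170-37654453, minus strand, mm10), an accessory subunit of the membrane arm. Its level was 28.8, 43.6 and 22.9 TMM-scaled CPM in the 96 h no DOX libraries (exp1_1, exp1_2, exp2_2), against 88.6, 120, 109 and 129 in the 2iL libraries. Every 2iL library was above every 96 h no DOX library. The log2 fold change was -1.81 (SE 0.26, edgeR adjusted p = 2.7e-05); experiment 1 gave -1.52 and experiment 2 gave -2.37. Ndufs8, a core subunit that carries iron-sulphur clusters, had 56.4, 59.1 and 47.6 in 96 h no DOX, against 91.9, 131, 136 and 119 in 2iL. Here too the groups did not overlap, with a log2 fold change of -1.14 (SE 0.23; edgeR adjusted p = 0.0011). Ndufa3, an accessory subunit, had 62.5, 62.3 and 62.3 in 96 h no DOX, against 105, 124, 138 and 136 in 2iL. The 96 h libraries were nearly equal to each other, with a log2 fold change of -1.01 (SE 0.21; edgeR adjusted p = 0.0014).

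The other complex I genes that fell were Ndufb10, Ndufb5, Ndufa9, Ndufv1, Ndufc1 and Ndufv3, with log2 fold changes between -0.84 and -0.60. Ndufv1 carries the site that binds NADH, and most of the others are accessory subunits. Of the 7 nuclear core subunits, which hold the redox centres, 2 fell (Ndufs8 and Ndufv1) with a median of -0.41. Of the 29 other tested genes assigned to complex I by symbol, 7 fell with a median of -0.43. Ndufs1, which carries several iron-sulphur clusters, was above 0 with a log2 fold change of 0.19 (SE 0.26) and was not called. The complex I gene with the most reads, the accessory subunit Ndufb8, was not called either: it averaged 641 ± 43.1 in 96 h no DOX and 849 ± 72.0 in 2iL, with a log2 fold change of -0.41 (SE 0.27, edgeR adjusted p = 0.34).

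Complex II, succinate dehydrogenase, is shared with the citric acid cycle and has no mitochondrially encoded subunit. Its flavoprotein Sdha fell: the level was 100, 94.0 and 96.4 in 96 h no DOX, against 152, 182, 166 and 165 in 2iL. All 2iL libraries lay above, with a log2 fold change of -0.78 (SE 0.20; edgeR adjusted p = 0.0073). The iron-sulphur subunit Sdhb, which had the most reads of the 4, averaged 185 ± 51.5 in 96 h no DOX and 238 ± 26.9 in 2iL and was not called (log2 fold change -0.36, SE 0.23).

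In complex III, the cytochrome bc1 complex, Uqcr10, Uqcrc1 and Uqcrb fell. Uqcr10 (ENSMUSG00000059534, chromosome 11, 4701973-4704342, minus strand), a small subunit, had 289, 299 and 287 in 96 h no DOX, against 634, 780, 683 and 496 in 2iL. The 96 h libraries lay close together and far below 2iL, with a log2 fold change of -1.15 (SE 0.24; edgeR adjusted p = 0.0013). Uqcrc1, a core subunit on the matrix side, had 206, 150 and 97.5 in 96 h no DOX, against 272, 263, 320 and 333 in 2iL. The groups did not overlap but the 96 h libraries were spread; the log2 fold change was -0.98 (SE 0.24, edgeR adjusted p = 0.0062), and without 96 h no DOX exp2_2, the lowest library, it was -0.74 (edgeR adjusted p = 0.051). Uqcrb had a log2 fold change of -0.93 (edgeR adjusted p = 0.010, and 0.058 without 96 h no DOX exp1_2). Uqcrh, the hinge protein and the complex III gene with the most reads, averaged 468 ± 68.1 and 583 ± 46.9 and was not called (log2 fold change -0.32, SE 0.23).

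Complex IV, cytochrome c oxidase, held the largest change of the whole set. Cox7a1 (ENSMUSG00000074218, chromosome 7, 30184144-30186078, plus strand), known as the heart and muscle isoform of a small subunit, had 13.5, 13.6 and 7.05 in 96 h no DOX, against 82.3, 72.5, 128 and 121 in 2iL. By the edgeR estimate, the level was 8.79-fold lower in 96 h no DOX, and even the highest library of that group was far below the lowest 2iL library. The log2 fold change was -3.14 (SE 0.35, edgeR adjusted p = 1.5e-06), and within experiment 1 alone it was called too (edgeR adjusted p = 0.00076). Cox6a1 (ENSMUSG00000041697, chromosome 5, 115345642-115348981, minus strand), the broadly expressed isoform of subunit VIa, had 227, 214 and 206 in 96 h no DOX, against 452, 455, 551 and 469 in 2iL. The groups were well apart with a log2 fold change of -1.16 (SE 0.21, edgeR adjusted p = 0.00036). Cox5a, Cox7b and Cox4i1 also fell, with log2 fold changes of -0.92, -0.80 and -0.75. For Cox5a, 69.3% of the 50-base windows in the last 300 bases of its transcript were also in the transcript of another gene. Reads from such windows can have more than 1 place and then go uncounted. Cox6c, the subunit gene with the most reads of complex IV, had a log2 fold change of -0.27 (SE 0.26) and was not called.

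In complex V, 6 genes fell. The largest was Atp5g1 (ENSMUSG00000006057, chromosome 11, 96068852-96075670, minus strand), 1 of 3 genes for the same c-ring protein of the membrane rotor. It had 189, 182 and 217 in 96 h no DOX, against 403, 413, 391 and 371 in 2iL. Both groups were tight, with a log2 fold change of -1.01 (SE 0.26; edgeR adjusted p = 0.0067). Of the other c-ring genes, Atp5g3 had -0.69 (SE 0.25, edgeR adjusted p = 0.056) and Atp5g2 0.25 (SE 0.47), and neither was called. In the central stalk, Atp5c1 and Atp5d fell (-0.84 and -0.69), and Atp5e had a log2 fold change of -0.19 without a call. In the catalytic head, Atp5a1 and Atp5b had log2 fold changes of -0.38 and -0.57, also without a call. Atp5b, the catalytic subunit and the complex V gene with the most reads, averaged 850 ± 133 in 96 h no DOX and 1261 ± 119 in 2iL (edgeR adjusted p = 0.11). Atp5mpl, Atp5o and Atp5j2, parts of the stalks and the membrane sector, completed the fallen genes with -0.88, -0.70 and -0.63.

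**Figure D3:**
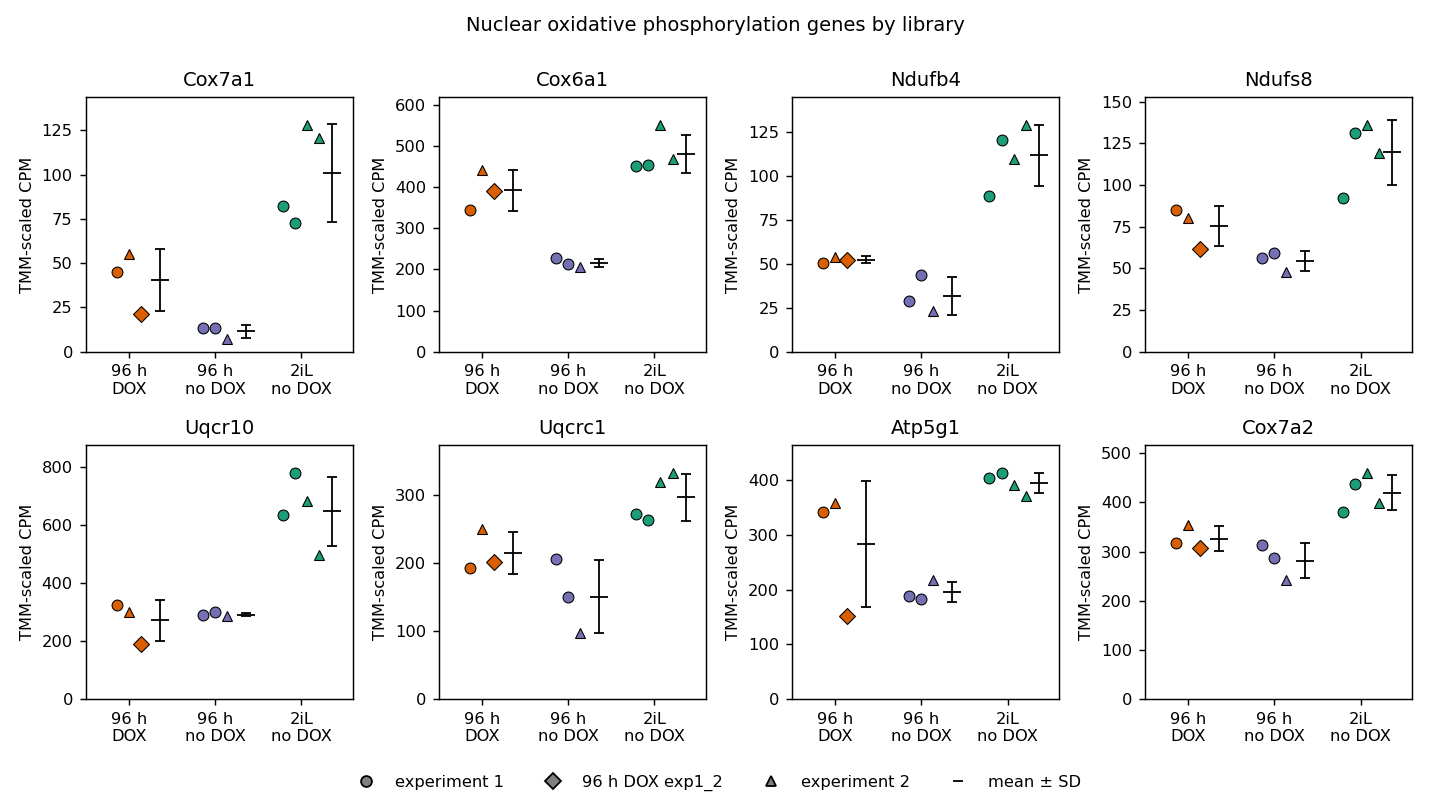
Levels of 8 nuclear genes in TMM-scaled CPM by library, with the mean and SD of each group, where circles are experiment 1, triangles experiment 2 and the diamond 96 h DOX exp1_2. Cox7a1 and Cox6a1 lie between 96 h no DOX and 2iL in all 3 DOX libraries, and Uqcr10 lies at 191 to 324 in 96 h DOX and 287 to 299 in 96 h no DOX, all below 2iL.

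With DOX at 96 h, most nuclear genes were not separable from 96 h no DOX and 2 were higher. In 96 h DOX against 96 h no DOX, 2 of 79 nuclear genes rose (2.53%) and 0 fell by edgeR (2.16% of all tested genes were called higher, 0.945% lower and 3.1% either way), and DESeq2 and limma-voom called 0 lower too. The share that rose is near that of all genes. The unadjusted p was below 0.05 for 10, the median log2 fold change was 0.07 (-0.02 over all genes), and 45 of 79 values were above 0. Without 96 h DOX exp1_2, 3 rose (3.80%, where 1.61% of all genes were called higher, 0.627% lower and 2.23% either way), the median was 0.14 and 60 of 79 values were above 0. Medians over all genes are not given for the fits without exp1_2, here or below, so a shift of all genes in them was not examined. Within experiment 1 alone, 0 were called by edgeR (4 at an unadjusted p below 0.05), where 0.831% of all genes were called higher, 0.124% lower and 0.955% either way. Endoderm markers moved with DOX: their sum was 1058, 1038 and 2437 CPM in the 96 h DOX libraries (exp1_1, exp2_1, exp1_2), against 340 to 527 in 96 h no DOX, and 9 of 11 rose. Naive markers summed to 439 to 553 CPM in 96 h DOX, against 155 to 177 in 96 h no DOX, with 5 of 9 called higher. Formative markers summed to 1887 to 2718 CPM, against 2691 to 3007, with 1 of 6 called higher and 2 lower. These marker calls include exp1_2. The part of these marker groups in the values below was not tested.

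Both genes that rose were of complex IV. Cox7a1 had 44.9, 55.0 and 21.4 in the 96 h DOX libraries (exp1_1, exp2_1, exp1_2), against 13.5, 13.6 and 7.05 in 96 h no DOX. All DOX libraries were above all libraries without DOX, and exp1_2 was the lowest of them. The log2 fold change was 1.85 (SE 0.36, edgeR adjusted p = 0.0050), it was 2.12 without exp1_2 (edgeR adjusted p = 0.00037), and it stayed called whichever library was left out. Cox6a1 had 344, 443 and 391 in 96 h DOX, against 227, 214 and 206 in 96 h no DOX. The groups did not overlap, with a log2 fold change of 0.86 (SE 0.22; edgeR adjusted p = 0.033, and 0.020 without exp1_2). The call of Cox6a1 was lost without any 1 of 96 h no DOX exp1_1, exp1_2 or exp2_2, 96 h DOX exp2_1, or 2iL exp1_2 or exp2_2, with adjusted p between 0.051 and 0.13 and log2 fold changes between 0.78 and 0.90.

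Atp5g1 was called only without exp1_2. Its level was 341, 357 and 151 in 96 h DOX, against 189, 182 and 217 in 96 h no DOX. The other DOX libraries were above every library without DOX and exp1_2 was below all of them; the log2 fold change was 0.54 (SE 0.27, edgeR adjusted p = 0.36) and 0.83 without exp1_2 (edgeR adjusted p = 0.020). Among the other genes with large falls after withdrawal, Ndufb4 had 50.4, 54.1 and 52.3 in 96 h DOX, against 28.8, 43.6 and 22.9 in 96 h no DOX. These did not overlap, but the log2 fold change of 0.71 was not called (SE 0.27, edgeR adjusted p = 0.19). Uqcr10 had 324, 301 and 191 in 96 h DOX, against 289, 299 and 287 in 96 h no DOX. The ranges overlapped, and the log2 fold change was -0.10 with a 95% interval of -0.61 to 0.42, and 0.10 without exp1_2. For Sdha the log2 fold change was 0.35 (interval -0.09 to 0.79), for Atp5b 0.11 (-0.42 to 0.64, and 0.30 without exp1_2) and for Cox7a2 0.21 (-0.24 to 0.67), none of them called.

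Against 2iL, a minority of the nuclear genes was lower with DOX. In 96 h DOX against 2iL, 18 of 79 nuclear genes fell (22.8%) and 0 rose by edgeR (6.83% of all tested genes were called lower, 9.84% higher and 16.7% either way), and DESeq2 and limma-voom called 0 higher too. The unadjusted p was below 0.05 for 30, and the median was -0.40 (0.02 over all genes). Without 96 h DOX exp1_2, 8 fell (10.1%, where 5.78% of all genes were called lower, 7.71% higher and 13.5% either way), with a median of -0.30. Of these 8, 7 were among the 18 (Atp5o, Cox7a1, Ndufa13, Ndufb4, Ndufb5, Ndufb7 and Uqcr10) and Cox6b2 was added. The count was 10 without 2iL exp1_1, 7 without 2iL exp2_1 and 11 without 2iL exp2_2, and the share of all genes is not given for these fits. Within experiment 1 alone it was 2 (2.53%), no more than the 2.69% of all genes called lower there (5.5% higher and 8.19% either way). With the library total as the only scaling the count was 10 (12.7%), where 582 of all 11215 tested genes were called lower. Under that scaling the median over all genes was 0.17, and 70.9% of all calls were higher, against 59.0% under TMM. The comparison shares its 2iL libraries with that of 96 h no DOX, and its DOX libraries with that of DOX against no DOX, so the 3 are not independent and their values are given side by side.

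Cox7a1 had 44.9, 55.0 and 21.4 in 96 h DOX, against 72.5 to 128 in 2iL. The lowest 2iL library was above the highest DOX library, with a log2 fold change of -1.29 (SE 0.32; edgeR adjusted p = 0.0076, and 0.025 without exp1_2). Uqcr10 had a log2 fold change of -1.25 (SE 0.24, edgeR adjusted p = 0.00093) and Ndufb4 of -1.10 (SE 0.25, edgeR adjusted p = 0.0045), and both stayed called whichever library was left out. Cox6b1, the broadly expressed isoform of subunit VIb on the side of cytochrome c, had 391, 530 and 214 in 96 h DOX, against 1214, 622, 780 and 713 in 2iL. Its groups did not overlap, but 2iL exp1_1 was far above the others; the log2 fold change was -1.13 (edgeR adjusted p = 0.020), with 0.082 without 2iL exp1_1, 0.052 without 96 h DOX exp1_1 and 0.057 without 96 h DOX exp1_2.

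Ndufa13, an accessory complex I subunit also known as Grim19 and as a partner of STAT3, had 271, 272 and 180 in 96 h DOX, against 367, 485, 514 and 526 in 2iL. No library overlapped, with a log2 fold change of -0.97 (SE 0.23; edgeR adjusted p = 0.0065, and 0.014 without exp1_2). In 96 h no DOX it had 328, 402 and 279, which overlapped the 2iL range and gave -0.49 against 2iL without a call. Ndufb7, Ndufb5 and Uqcrb had log2 fold changes of -0.95, -0.86 and -0.85 in 96 h DOX against 2iL (-0.62, -0.68 and -0.62 without exp1_2); the calls of Ndufb7 without 2iL exp2_1 (edgeR adjusted p = 0.064) and of Uqcrb without exp1_2 (0.060) were lost, and Uqcrb was also lost without 2iL exp1_1, exp2_1 or exp2_2 or 96 h DOX exp1_1. Genes that fell also included Atp5c1, Atp5mpl, Atp5o, Cox7b, Ndufa9, Ndufb10, Ndufb9, Ndufs6 and Uqcr11, with values between -0.81 and -0.72; without exp1_2 these were between -0.64 and -0.48. Cox6a1, which fell in 96 h no DOX, had a log2 fold change of -0.29 in 96 h DOX against 2iL (interval -0.72 to 0.13) and was not called.

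Several subunits exist as isoform pairs, and here the broadly expressed form took most reads of each pair. Cox7a1 made up 10.8% ± 3.73 of the reads of Cox7a1 and Cox7a2 in 96 h DOX, 3.82% ± 0.886 in 96 h no DOX and 19.2% ± 4.07 in 2iL (SD). The ranges of the groups were 6.52% to 13.4%, 2.82% to 4.52% and 14.2% to 23.2% and did not overlap. Cox7a2, the broadly expressed partner, had a log2 fold change of -0.58 in 96 h no DOX against 2iL (edgeR adjusted p = 0.051). Cox6b2, described as a testis isoform, was 13.1% ± 13.3 of Cox6b2 and Cox6b1 in 96 h DOX, 7.24% ± 3.75 in 96 h no DOX and 5.90% ± 1.52 in 2iL. That DOX mean came from exp1_2 with 28.4% (95% Wilson interval 24.2% to 33.0%), against 6.26% and 4.65% in the other DOX libraries. Wilson intervals and floors cover counting error only.

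At the low end, Cox6a2, the heart and muscle isoform of subunit VIa, had 9, 2 and 2 reads in the 96 h DOX libraries, 9, 5 and 6 in 96 h no DOX and 0 in all 4 2iL libraries. With a floor of 3 reads over the 2iL group, its share of reads was at least 6.67-fold higher in 96 h DOX and at least 7.47-fold higher in 96 h no DOX than in 2iL. It did not pass the filter; without a filter the edgeR adjusted p was 0.048 and 0.026. Cox8c, another tissue-restricted isoform, had 8, 9 and 1 reads in 96 h DOX, 0 in the 3 libraries of 96 h no DOX and 3 in 1 of the 4 2iL libraries. That was at least 8.23-fold higher in 96 h DOX than in 96 h no DOX, with an adjusted p of 0.18 in edgeR without a filter.

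Turning to the mitochondrial genome, the mitochondrially encoded genes gave no call after withdrawal of 2iL alone. In 96 h no DOX against 2iL, 0 of 11 were called by edgeR, 0 had an unadjusted p below 0.05, and DESeq2 and limma-voom called 0 as well (2 at an unadjusted p below 0.05 in each). Of all tested genes, edgeR called 8.9% lower and 11.5% higher. The median log2 fold change was -0.20, and 9 of 11 were below 0. Without 96 h DOX exp1_2 in the shared fit, mt-Nd2 (-0.71, edgeR adjusted p = 0.011) and mt-Nd4 (-0.60, edgeR adjusted p = 0.016) were called lower, where 10.6% of all genes were. Both encode subunits of the proton-pumping arm of complex I. mt-Nd4 had 2171, 1416 and 1598 in 96 h no DOX, against 2599, 2543, 2748 and 2578 in 2iL, and mt-Nd2 had 946, 831 and 540 against 979, 1405, 1410 and 1259. Neither overlapped between these groups. mt-Nd1, a complex I subunit near the coenzyme Q site, had 3244, 3187 and 1762 against 3142, 4133, 4293 and 4041. These overlapped, with a log2 fold change of -0.51 (SE 0.27).

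With DOX, 2 of the 11 mitochondrially encoded genes were called, and neither call held without exp1_2. In 96 h DOX against 96 h no DOX, 2 of 11 rose (2.16% of all tested genes were called higher) and 0 fell by edgeR, DESeq2 and limma-voom (0.945% of all genes lower by edgeR), and the median log2 fold change was 1.07. Without exp1_2, 0 were called by edgeR (6 at an unadjusted p below 0.05, where 1.61% of all genes were called higher and 0.627% lower), with a median of 0.65 and 9 of 11 values above 0. mt-Co1 (mitochondrial genome, 5328-6872), the catalytic core of complex IV, had 313, 359 and 802 in 96 h DOX, against 177, 241 and 165 in 96 h no DOX. All DOX libraries were above, with exp1_2 far above; the log2 fold change was 1.33 (SE 0.30, edgeR adjusted p = 0.016) and 0.79 without exp1_2 (edgeR adjusted p = 0.063). mt-Nd5 (11742-13565), a proton-pumping subunit of complex I, had 245, 253 and 939 in 96 h DOX, against 163, 206 and 105 in 96 h no DOX. The pattern over libraries was alike, with a log2 fold change of 1.59 (SE 0.39, edgeR adjusted p = 0.030) and 0.65 without exp1_2 (edgeR adjusted p = 0.22). Both calls were also lost without 96 h no DOX exp1_1 or exp2_2, and that of mt-Nd5 without 96 h no DOX exp1_2, with adjusted p from 0.051 to 0.16.

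No other gene of the mitochondrial genome was called in 96 h DOX against 96 h no DOX. mt-Nd2 (3914-4951) had 1378, 1421 and 10590 in 96 h DOX, against 946, 831 and 540 in 96 h no DOX. The groups did not overlap, but exp1_2 was far above the other DOX libraries; the log2 fold change was 2.53 (SE 0.64, edgeR adjusted p = 0.053) and 0.86 without exp1_2 (0.053). mt-Nd6 (13552-14070, minus strand), encoded on the other strand from all the rest, had 39.7, 44.3 and 46.4 in 96 h DOX, against 10.3, 20.3 and 31.4 in 96 h no DOX. Here exp1_2 was close to the other DOX libraries, with a log2 fold change of 1.07 (SE 0.38; edgeR adjusted p = 0.15) and 1.02 without exp1_2. mt-Cytb, the complex III subunit, averaged 2742 ± 636 in 96 h DOX and 1588 ± 521 in 96 h no DOX, and mt-Nd1 4463 ± 1011 and 2731 ± 840, with log2 fold changes of 0.79 and 0.71 (0.65 and 0.52 without exp1_2) and no call. mt-Nd4 had 2110, 2380 and 7425 in 96 h DOX, against 2171, 1416 and 1598 in 96 h no DOX. The groups overlapped, exp1_2 was far above, and the difference on the log2 scale was 1.20 (SE 0.37; edgeR adjusted p = 0.087) and 0.38 without exp1_2 (0.51). mt-Co2, mt-Co3, mt-Nd3 and mt-Atp6 held means between 3.12 and 11.6 in these groups and were not called. Their log2 fold changes were 1.10, 0.55, -0.23 and 0.66, and 0.95, -0.20, -0.14 and 0.80 without exp1_2.

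**Figure D4:**
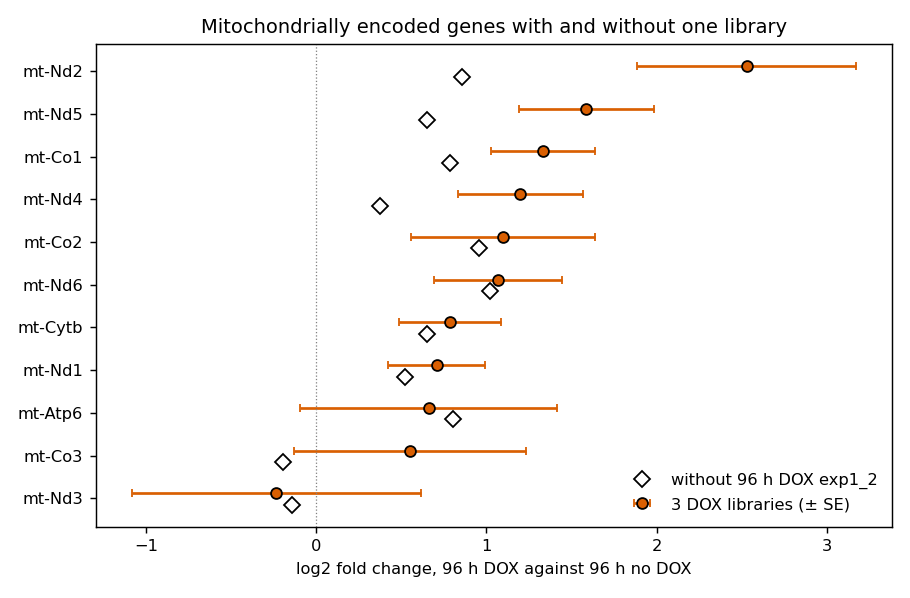
Log2 fold change of the 11 mitochondrially encoded genes in 96 h DOX against 96 h no DOX, with all 3 DOX libraries (filled, with SE) and without 96 h DOX exp1_2 (open diamonds). The value of mt-Nd2 is 2.53 with that library and 0.86 without it, while mt-Nd6 is 1.07 and 1.02.

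Against 2iL, 3 of the 11 rose in 96 h DOX (mt-Nd2 1.82, mt-Nd5 1.56 and mt-Co1 1.13), with edgeR adjusted p of 0.045, 0.0048 and 0.0074, where 9.84% of all tested genes were called higher. Without exp1_2, 0 were called by edgeR (3 at an unadjusted p below 0.05, and 7.71% of all genes called higher), and the values were 0.14, 0.62 and 0.58. The call of mt-Nd2 was lost when any 1 of the 10 libraries other than 96 h DOX exp1_1 or exp2_1 was left out. Within experiment 1, where exp1_2 is 1 of the 2 DOX libraries, 3 were called (5.5% of all genes higher).

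The make-up of the mitochondrially encoded reads also set exp1_2 apart. mt-Nd2 made up 37.0% of them in exp1_2, against 9.44% to 14.3% in the other 9 libraries, and mt-Nd1 19.4%, against 30.8% to 45.2%. mt-Cytb was 11.3% there (15.7% to 26.4% elsewhere), while mt-Nd4 was 25.9%, inside the range of the others (20.1% to 28.7%). Per read of mt-Nd1, exp1_2 had 1.91 reads of mt-Nd2 and 1.34 of mt-Nd4, while the other libraries had 0.261 to 0.390 and 0.444 to 0.907. All but mt-Nd6 are known to be cut from a shared transcript of the heavy strand. The part that depth, fibroblast RNA or RNA quality may play in these values was not tested.

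**Figure D5:**
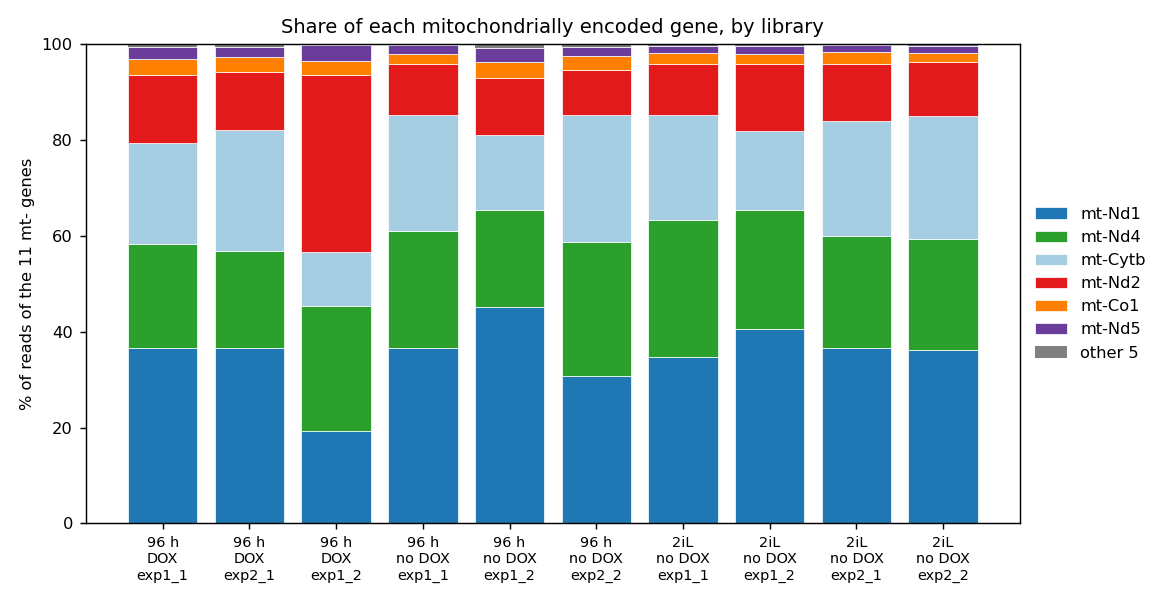
Share of each mitochondrially encoded gene in the reads of all 11, one bar per library. In 96 h DOX exp1_2 the red part, mt-Nd2, is 37.0% of the bar and the lowest part, mt-Nd1, is 19.4%, outside the range of the other 9 libraries for both.

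Copies of mitochondrial sequence in the nuclear genome bear on which of these genes could be counted. All 50-base windows in the last 300 bases of mt-Co1 and mt-Co2 were also in nuclear pseudogenes, as were 99.6% for mt-Co3 and 98.8% each for mt-Atp6 and mt-Nd3. Matching pseudogenes lie on chromosome 1 (Gm29216, 24615706-24616197, Gm28661, 24614885-24615565, and their neighbours) and chromosome 2 (Gm13340, 22588103-22589647). Only reads with 1 place were counted, and the 5 genes held 2.06% to 3.91% of the mitochondrially encoded reads, and their values, mt-Co1 included, are uncertain. mt-Nd2 shared 31.9% of its windows, mt-Nd5 1.99%, and mt-Nd1, mt-Nd4, mt-Nd6 and mt-Cytb 0%. Of the nuclear genes, 57 of 83 shared no window and 7 shared over 50% (Uqcrc2, Ndufb6, Cox7c, Atp5l, Cox5a, Ndufs5 and Ndufs3). Windows were compared between transcripts on either strand, so an overlapping neighbour also counts as shared. The strand setting is not given, so mt-Nd6 and mt-Nd5, which overlap on opposite strands, may share reads.

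Genes that build and serve the complexes are given next for 96 h no DOX against 2iL, where 11.5% of all tested genes were called higher and 8.9% lower. Of 50 tested assembly factors, 1 rose and 2 fell (median -0.14): the complex I assembly factors Ndufaf3 (0.90, edgeR adjusted p = 0.043) and Ndufaf5 (-1.55, 0.0051), and Higd2a (-1.07, 0.0010), which serves complex IV. Of 75 mitochondrial ribosome genes, 1 rose (Mrpl23, 1.98) and 0 fell by edgeR. Of 27 genes of mitochondrial transcription and RNA handling, 2 fell and 0 rose by edgeR, and the share that fell was not above that of all genes. Grsf1, an RNA-binding protein of mitochondrial RNA granules, averaged 64.2 ± 3.10 in 96 h no DOX and 232 ± 86.6 in 2iL (log2 fold change -1.85, SE 0.27). Fastk had -1.04 (edgeR adjusted p = 0.0073). Of 13 mitochondrial DNA maintenance genes, 0 were called in any of the 3 comparisons by edgeR.

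In the supply of electrons, 1 of 21 tested citric acid cycle genes fell and 0 rose by edgeR in 96 h no DOX against 2iL (8.9% of all tested genes lower and 11.5% higher). That gene was Idh2, the mitochondrial NADP-dependent isocitrate dehydrogenase, with 76.6 ± 14.7 in 96 h DOX, 38.5 ± 4.52 in 96 h no DOX and 106 ± 4.77 in 2iL. It fell in 96 h no DOX against 2iL (-1.46, SE 0.23) and rose in 96 h DOX against 96 h no DOX (1.00, SE 0.24, edgeR adjusted p = 0.021, and 0.0064 without exp1_2). Idh3a, a subunit of the NAD-dependent enzyme, also rose with DOX (1.31, edgeR adjusted p = 0.038) but not without exp1_2 (0.74, edgeR adjusted p = 0.26). Of 21 electron carrier and coenzyme Q genes, Etfb (-0.99) and Dhodh (-0.76) fell in 96 h no DOX against 2iL, and of 10 carrier and uncoupling genes the outer membrane channels Vdac1 (-0.90) and Vdac3 (-0.85) fell. Ucp2, an inner membrane carrier, rose in 96 h DOX against 2iL (56.7 ± 28.8 and 14.0 ± 2.28, log2 fold change 1.99, and 1.51 without exp1_2, both called).

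Among 15 tested regulators of mitochondrial genes, Stat3 and Esrrb fell and Hif1a and Tfe3 rose in 96 h no DOX against 2iL. These 2 of 15 in each direction are near the shares of all tested genes (8.9% lower and 11.5% higher). Stat3, which LIF activates and which has been tied to mitochondrial transcription in naive cells, averaged 55.5 ± 19.0 in 96 h DOX, 30.2 ± 11.8 in 96 h no DOX and 160 ± 43.3 in 2iL. Its log2 fold change was -2.41 (SE 0.32) in 96 h no DOX against 2iL and -1.52 (SE 0.30) in 96 h DOX against 2iL. Hif1a, the oxygen-sensing regulator of glycolysis, had 1.01 (edgeR adjusted p = 0.021) and Tfe3, a lysosomal and metabolic regulator, 0.90 (0.024) in 96 h no DOX against 2iL. Pprc1, a coactivator of the PGC-1 family, fell in 96 h DOX against 2iL (-1.14, edgeR adjusted p = 0.020, and 0.050 without exp1_2, with -0.79).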

How the data were processed

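Each library has 1 table of raw counts per gene, which the authors deposited with reads made by 3′ digital gene expression, and the deposited tables of CPM hold the same counts divided by the library's reads in genes (310530 of 310530 values gave whole reads within 0.01 read, equal to the counts). Per the submitters' processing notes the tools were bcl2fastq, STAR 2.6.0a and HTSeq with the mm10 genome; the sources used here name neither the strand setting nor the annotation release. Lines that name no gene took 62.7% to 68.4% of reads, most of them multi-mapping, and stayed out of totals and tests.

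Gene IDs were matched to symbols and positions of GRCm38 (30934 of 31053). Genes were filtered with filterByExpr (minimum count 10; 11215 kept), scaled by TMM and fitted over all 10 libraries with 1 term per group by edgeR 4.0.16 (robust quasi-likelihood, R 4.3.3) with Benjamini-Hochberg adjustment, and SE is the log2 fold change over the root of F. The test was tried on simulated data with 200 changed genes. Named are every nuclear gene called in any comparison (full values for up to 8 per direction and comparison, by size of change), the gene with the most reads per complex, all mitochondrially encoded genes, the isoform pairs, and up to 2 called genes per direction and comparison of each other list; some genes that meet this rule are not reported here. Ndufs1, Atp5g2, Atp5g3, Atp5a1 and Atp5e were named after their values were seen. Groups of subunits within a complex were drawn up after their values were seen. The members and lists were chosen with earlier results of these data known. Alternatives were DESeq2 1.42.0, limma-voom (limma 3.58.1), other scalings and filters, each library left out, the compared groups alone, experiment 1 alone and replicate blocks. Tables were handled with Python 3.11.15 and pandas 2.3.3. The counts are of reads, with no molecular identifiers stated per the labels, so intervals and floors cover counting error only.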

Additional observations from a re-analysis of the deposited data

Results flagged for a closer look

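Of 54 groups of 4 libraries tested for a single distant value (the tests covered the 2iL group), 2 had one, where chance gives about 1 in 20 groups. Cox6b2 had 39.6 TMM-scaled CPM in 2iL exp2_2, against 52.5 to 53.9 in the other 2iL libraries. mt-Co3 had 9.94 in 2iL exp1_2, against 3.00 to 3.38, at few reads.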

How the results depend on the processing

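In 96 h DOX against 96 h no DOX, the 2 nuclear genes called higher became 1 with no filter beyond 1 read, 1 with only the compared groups, 0 in experiment 1 alone, and 1 to 3 when 1 library was left out. The 2 mitochondrially encoded genes became 1 by limma-voom, 0 with only the compared groups, 0 in experiment 1 alone, and 0 to 4 when 1 library was left out. In 96 h no DOX against 2iL, the 24 lower nuclear genes became 3 in experiment 1 alone (3.80%, against 4.39% of all genes) and 14 to 34 when 1 library was left out. The 0 lower mitochondrially encoded genes became 2 with only the compared groups and 0 to 2 when 1 library was left out, and 1 nuclear gene (Cox6a2) was higher with no filter beyond 1 read. In 96 h DOX against 2iL, the 18 lower nuclear genes became 10 with the library total as the only scaling and 7 to 19 when 1 library was left out. In experiment 1 alone they became 2 (2.53%, against 2.69% of all genes). Also there, 1 nuclear gene was higher with no filter beyond 1 read, and the 3 higher mitochondrially encoded genes became 0 to 3 when 1 library was left out. The nuclear sum was 18643 CPM in 96 h no DOX and 25583 in 2iL with mitochondrially encoded genes and Gm42418 out of the total, and 25396 in 2iL after TMM scaling. With experiment as a replicate block the nuclear counts were 2, 24 and 18; with a replicate block of experiment and number they were 1, 22 and 18, and 0 mitochondrially encoded genes were higher in 96 h DOX against 96 h no DOX. Deviations of the 8 same-numbered pairs correlated at -0.0953 to 0.205 (median 0.0183), and those of the 25 other pairs at -0.179 to 0.136 (median -0.00596). Groups this small cannot settle whether the numbers pair the libraries. Of 1072 values of 49 called gene changes under alternatives, 871 stayed called, 201 lost the call and 0 reversed; experiment 1 alone lost 41 of 49. Experiment 1 alone has smaller samples and fewer residual degrees of freedom. The cause of the lost calls was not tested, there or under the other alternatives. Each 96 h group held 1 library in experiment 2, and the DOX libraries of experiment 1 include exp1_2. An interaction test therefore cannot show that the experiments gave the same effects. For Cox7a1 in 96 h DOX against 96 h no DOX, the log2 fold change was 1.34 in experiment 1 and 2.96 in experiment 2. Depth limits mt-Co2, mt-Co3, mt-Nd3, mt-Atp6 and the isoforms at few reads most.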
